A study of Mus musculus with 35 samples.

Results

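Carmofur-treated mouse colon tumour organoids were compared with their controls within the first block of sequencing libraries of the carmofur experiment. The block was chosen by library number: 6 treated libraries numbered 201113 to 201118 and 3 control libraries numbered 201107 to 201109, which are 9 of the 35 libraries of the series. All groups used here are organoids of mouse colon tumour labelled with the genotype AKP, grown in vitro. The treated group carries the treatment label carmofur and the control group the label control. The labels give no dose, exposure time, vehicle or animal, and do not say whether the libraries are separate cultures or stem from more than 1 organoid line. The p-values therefore measure the spread between libraries, which may be technical. The 3 controls form a single run of consecutive numbers and the treated libraries form 2 such runs, so the control set and the absence of carmofur cannot be told apart. The numbers are not stated to be batches.

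Carmofur is a drug with at least 2 known actions. It inhibits ceramidases, the enzymes that cut ceramide into sphingosine and a fatty acid, and it is a prodrug of 5-fluorouracil, a fluorinated pyrimidine that blocks thymidylate synthase and is built into RNA and DNA. Ceramides are the central lipids of sphingolipid metabolism and also act as stress signals. The study asked how fatty acid and ceramide levels alter transcription in these organoids. The labels do not spell out the genotype name AKP. In the colon, stem cells of the crypt base renew the epithelium, absorptive and goblet cells line its surface, and a fetal-like state marked by Clu and annexins, called revival, appears after injury.

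Gene counts summed to between 1663750 and 4844457 in the controls and between 4103105 and 7350705 with carmofur. Control replicate 1 was the shallowest, with 10823 genes detected against 12643 to 14436 in the treated libraries, and stood apart on the first principal component (23.9% of the variance), so results are also given without it. A count of 0 allowed up to 3 counts, or 0.629 to 1.87 CPM (a count scaled to its library's depth by TMM) in a control and 0.391 to 0.737 CPM in a treated library. These limits cover counting error only, since PCR reads carry no molecular identifiers. Epithelial markers summed to 2276 to 2881 CPM in the controls and 2434 to 2991 CPM with carmofur, and the keratins Krt8 and Krt19 and the adhesion molecule Epcam were present in every library. The 16 mesenchymal markers summed to 0 CPM in every control and at most 0.683 CPM with carmofur. The 22 immune markers summed to 28.1 to 54.7 CPM and 14.7 to 40.6 CPM, mostly from Cd68, with the pan-leukocyte gene Ptprc at up to 5.87 CPM and the T cell gene Cd3e and the macrophage genes Adgre1 and Csf1r at 0 counts. The 12 endothelial and blood markers summed to 10.6 to 25.4 CPM and 10.6 to 15.8 CPM, mostly Pecam1, with Cdh5 and Kdr at 0. None of 7 such library measures, depth included, passed an exact two-sided permutation test over libraries (p from 0.167 to 0.619, Benjamini-Hochberg adjusted p from 0.5 to 0.619, smallest p possible 0.0238), and their part in the results was not tested. In bulk RNA, fewer cells of a type and less RNA per cell cannot be told apart.

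With carmofur 115 genes rose (1.05% of the 10907 tested) and 119 fell (1.09%), 234 in all (2.15%), at an adjusted p under 0.05. The p-values are those of edgeR's quasi-likelihood test, adjusted over all genes by Benjamini and Hochberg, as for every adjusted p below, and "rose" and "fell" are used of genes past it. Values given in parentheses after a gene are its log2 fold change, carmofur against control, ± SE. At an unadjusted p under 0.05 there were 1463 genes (13.4%), and in 875 (8.02%) every treated library lay beyond every control, above them in 458 (4.20%) and below in 417 (3.82%). The median log2 fold change of all genes tested was 0.03. Among the calls 49.1% were higher, against 64.4% of 236 calls with library-size scaling and 63.1% of 517 calls with DESeq2. A fit without control replicate 1 gave 170 calls, 142 of them among the 234.

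ATF4 is the transcription factor of the integrated stress response. That response slows translation when amino acids run short or the endoplasmic reticulum is stressed, and switches on genes for amino acid synthesis and transport. Of 33 tested ATF4 and CHOP targets, 3 genes of amino acid synthesis fell with carmofur and 0 rose, 28 had a negative log2 fold change and the median was -0.60. Asns, which makes asparagine (ENSMUSG00000029752; mm10 chromosome 6, 7675169 to 7693254, minus strand), had 807, 541 and 620.4 CPM in the controls and 144 to 332 CPM (median 219) with carmofur. The lowest control lay above the highest treated library, and the log2 fold change was -1.55 ± 0.21 (SE; adjusted p = 0.001). Both other falls were enzymes of serine synthesis. Psph, the last step of that pathway, had 95.5, 152 and 183 CPM in the controls and 40.4 to 104 CPM (median 58.6) with carmofur, and the highest treated library exceeded the lowest control. Its log2 fold change was -1.20 ± 0.27 (adjusted p = 0.0301), and that of Psat1, the step before it, was -0.63 ± 0.15 (adjusted p = 0.0336). Mthfd2, a mitochondrial folate enzyme (-1.25 ± 0.33, adjusted p = 0.0614), Atf4 itself (-0.83 ± 0.29, adjusted p = 0.178) and Ddit3, which encodes the stress factor CHOP (-1.14 ± 0.41, adjusted p = 0.205), did not pass the test. The call of Asns held whichever library was left out, and those of Psph and Psat1 were each lost in 7 of 9 such fits (adjusted p up to 0.163 and 0.156). Leaving out control replicate 1 gave 2 falls in the list and a median of -0.71.

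Transfer RNA synthetases, which load amino acids onto their transfer RNAs and include further ATF4 targets, had 2 falls and 0 rises among 19 tested, with 17 negative values and a median of -0.46. Nars, which loads asparagine, had 593, 670.1 and 654 CPM in the controls and 287 to 500.3 CPM (median 368) with carmofur. The groups did not overlap, and the log2 fold change was -0.76 ± 0.14 (adjusted p = 0.00752), a call kept whichever library was left out. Tars, which loads threonine, had 100.5, 112 and 101 CPM and 46.5 to 62.8 CPM (median 54), also without overlap (-0.97 ± 0.22, adjusted p = 0.0275). The call of Tars was lost in 5 of 9 fits without 1 library (adjusted p up to 0.105). Sars (-0.63 ± 0.18, adjusted p = 0.0935) and Cars (-1.07 ± 0.35, adjusted p = 0.151), for serine and cysteine, did not pass.

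ATF4 and CHOP bind a composite element, TGATGNAA, and the promoters of Asns and Tars are shown because they are the called genes of these lists whose RefSeq promoter window holds those letters. The windows run from 250 bases before to 50 after the gene's start (GRCm38.p6, 5′ to 3′ on the gene's strand), and capitals mark the match, which in Tars is on the opposite strand.
Asns (chr6:7693160-7693459, minus strand): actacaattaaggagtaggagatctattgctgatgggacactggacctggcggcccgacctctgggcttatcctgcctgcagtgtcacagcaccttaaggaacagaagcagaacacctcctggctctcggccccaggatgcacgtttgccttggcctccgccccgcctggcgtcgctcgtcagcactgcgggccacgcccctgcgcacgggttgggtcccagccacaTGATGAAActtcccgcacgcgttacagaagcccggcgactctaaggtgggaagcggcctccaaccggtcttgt
Tars (chr15:11399609-11399908, minus strand): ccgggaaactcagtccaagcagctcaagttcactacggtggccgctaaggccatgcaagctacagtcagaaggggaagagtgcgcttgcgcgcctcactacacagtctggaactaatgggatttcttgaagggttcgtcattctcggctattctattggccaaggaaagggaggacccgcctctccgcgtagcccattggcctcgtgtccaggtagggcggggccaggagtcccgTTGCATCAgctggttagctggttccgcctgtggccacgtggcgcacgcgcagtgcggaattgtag
Searched on both strands, TGATGNAA was present in 1304 of 32851 promoter windows (3.97%). In the stress response list it was in 9 of 29 genes with a window (31.0%), and among the synthetases in 5 of 12 (41.7%). The first share counts windows, which stand for 27025 gene symbols. The list shares count genes with a match in any of their windows, so the units differ. The windows of Psat1 and Psph do not hold TGATGNAA, and Nars, the other called synthetase gene, had no window to search. A match describes the sequence and shows no binding.

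Chaperones of the endoplasmic reticulum help secreted and membrane proteins to fold. Of 31 tested, 4 fell and 0 rose, 25 had a negative log2 fold change and the median was -0.38. Hspa5, the main HSP70 chaperone of that compartment (ENSMUSG00000026864; mm10 chromosome 2, 34771970 to 34777547, plus strand), had 557, 742 and 597 CPM in the controls and 219 to 449 CPM (median 335) with carmofur. The groups did not overlap (-0.93 ± 0.19, adjusted p = 0.0136), and the call was lost without control replicate 2 (adjusted p = 0.0959). Ero1a, the oxidase that feeds disulphide bond formation and also a hypoxia-responsive gene, had 651, 644 and 505 CPM and 116 to 284 CPM (median 226). Every treated library was below every control (-1.49 ± 0.22, adjusted p = 0.00162), a call that held in each fit with 1 library left out. Pdia6, a disulphide isomerase, had 788, 710.1 and 796 CPM and 349 to 555 CPM with a median of 513 (-0.68 ± 0.13, adjusted p = 0.0116), again without overlap, and lost its call without control replicate 3 (adjusted p = 0.0592). Hsp90b1, the HSP90 chaperone of the compartment, had 872, 936 and 1005 CPM and 597 to 763 CPM with a median of 722 (-0.40 ± 0.10, adjusted p = 0.0372), and its call was lost in 8 of 9 such fits (adjusted p up to 0.183). Without control replicate 1 the list had 4 falls, Hsp90b1 not among them, and its median was -0.42.

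Genes of this list are classically controlled through the endoplasmic reticulum stress response element, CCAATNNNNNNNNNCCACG, and the windows below are those of the called genes that hold it. Build, window and direction are as for Asns, and capitals mark each match.
Hspa5 (chr2:34771840-34772139, plus strand): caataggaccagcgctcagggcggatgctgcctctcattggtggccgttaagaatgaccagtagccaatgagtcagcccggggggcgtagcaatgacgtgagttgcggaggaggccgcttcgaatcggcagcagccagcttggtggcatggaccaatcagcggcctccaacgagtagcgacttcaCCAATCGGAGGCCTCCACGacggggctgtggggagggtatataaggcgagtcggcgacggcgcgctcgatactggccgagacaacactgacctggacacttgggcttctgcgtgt
Hsp90b1 (chr10:86705395-86705694, minus strand): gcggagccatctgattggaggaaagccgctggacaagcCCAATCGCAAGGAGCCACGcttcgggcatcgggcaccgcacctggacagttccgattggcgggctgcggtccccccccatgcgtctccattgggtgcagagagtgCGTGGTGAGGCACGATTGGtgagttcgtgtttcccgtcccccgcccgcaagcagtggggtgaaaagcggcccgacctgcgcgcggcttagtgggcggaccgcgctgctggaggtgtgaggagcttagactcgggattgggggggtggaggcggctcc
Pdia6 (chr12:17266339-17266638, plus strand): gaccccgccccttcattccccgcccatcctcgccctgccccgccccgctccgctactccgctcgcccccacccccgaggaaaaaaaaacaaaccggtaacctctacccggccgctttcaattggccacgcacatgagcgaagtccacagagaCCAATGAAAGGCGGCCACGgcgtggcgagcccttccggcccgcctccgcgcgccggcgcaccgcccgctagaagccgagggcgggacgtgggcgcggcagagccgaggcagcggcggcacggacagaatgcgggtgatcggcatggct
Of all 32851 windows, 39 held the element on either strand (0.119%), against 8 of the 26 list genes with a window (30.8%). Those 8 were Calr, Canx, Creld2, Dnajc3, Ero1b, Hsp90b1, Hspa5 and Pdia6. As for TGATGNAA, the first share counts windows and the second counts genes. Hsp90b1 held 2 matches, 1 on each strand, and Ero1a, the list's largest called fall, held none.

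**Figure D1:**
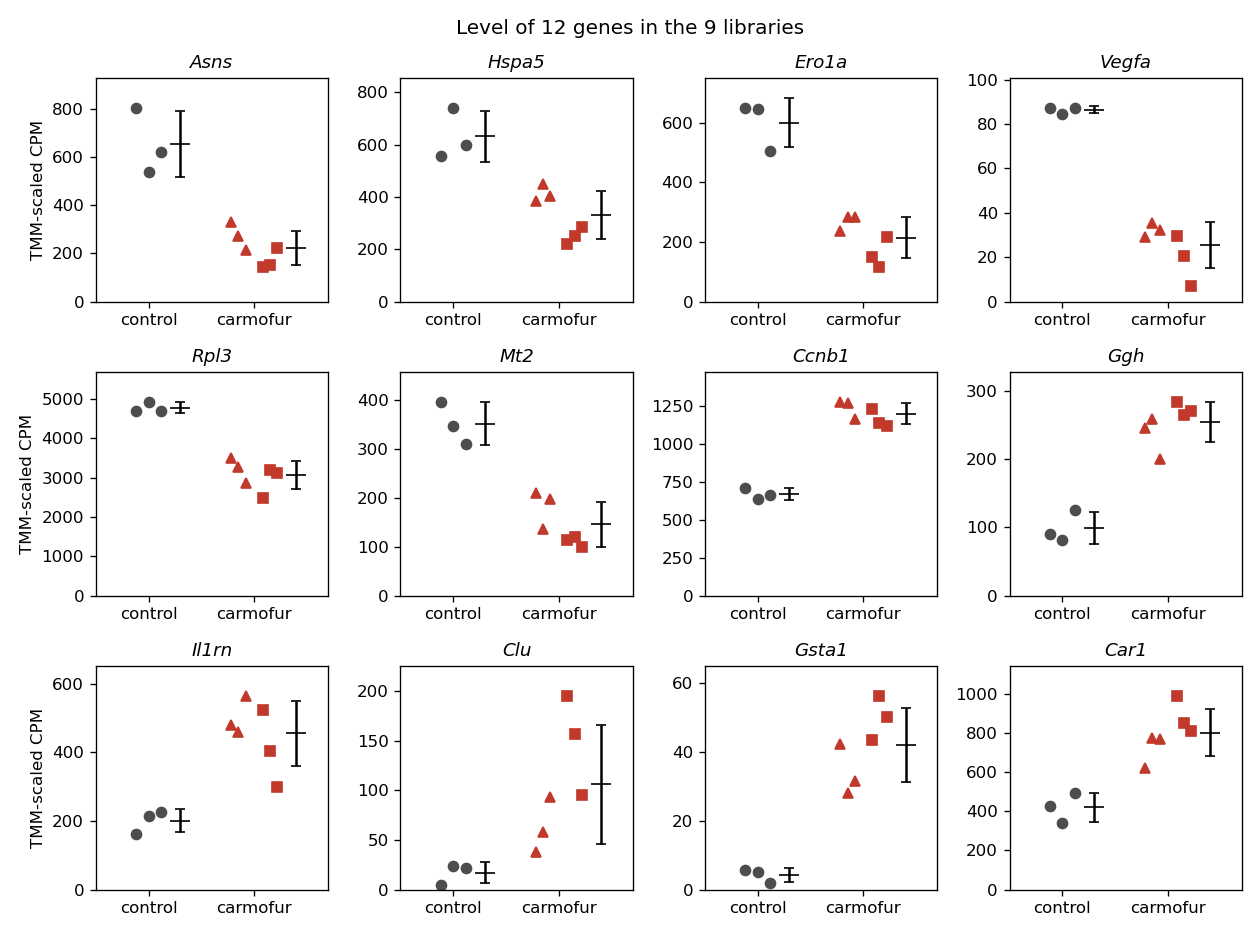
TMM-scaled CPM (vertical axis, starting at 0) of 12 genes in the 3 control libraries (grey circles) and 6 carmofur libraries (red triangles for replicates 1 to 3, squares for 4 to 6), with mean ± SD beside them. In each of the 12 genes the control and carmofur libraries do not overlap, as for Asns at 541 to 807 CPM against 144 to 332 CPM.

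Glycolytic and hypoxia-induced genes had 8 falls and 1 rise among 35 tested, 30 negative values and a median of -0.36. Vegfa, the angiogenic growth factor (mm10 chromosome 17, 46016993 to 46032369, minus strand), had 87.4, 84.7 and 87.5 CPM in the controls and 7.03 to 35.3 CPM (median 29.3) with carmofur. The controls lay within 3 CPM of each other and every treated library was below all of them (-1.75 ± 0.37, adjusted p = 0.0215). That call was lost without control replicate 2, control replicate 3 or carmofur replicate 5 (adjusted p = 0.0676, 0.0698 and 0.0578). Bnip3, a mitophagy receptor induced by low oxygen, had 2249.6, 2031 and 2433 CPM and 967 to 1571 CPM with a median of 1236 (-0.83 ± 0.12, adjusted p = 0.00162). Its relative Bnip3l fell too (-0.56 ± 0.10, adjusted p = 0.00858) and lost its call without control replicate 3 (adjusted p = 0.0502). The glycolytic enzyme gene Gapdh had 2994, 3596 and 3014 CPM and 1959 to 2300.2 CPM with a median of 2111 (-0.60 ± 0.08, adjusted p = 0.000942), and Aldoa, the aldolase, 4313, 4299 and 4396 CPM and 3363 to 3635 CPM with a median of 3444 (-0.32 ± 0.06, adjusted p = 0.0065). In Bnip3, Bnip3l, Gapdh and Aldoa the treated and control libraries did not overlap, and the calls of Bnip3, Gapdh and Aldoa held whichever library was left out. The single rise was that of the glucose transporter gene Slc2a3, named after its values were seen, with 283, 239 and 248 CPM in the controls and 324 to 419 CPM (median 379.7) with carmofur (0.56 ± 0.13, adjusted p = 0.0311). It was lost in 6 of 9 such fits (adjusted p up to 0.109). The list had 6 falls and 1 rise without control replicate 1, as it did with library-size scaling.

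Of 81 ribosomal protein genes tested, 13 fell and 0 rose, 76 had a negative log2 fold change, and in 35 every treated library lay below every control, where 3.82% of all genes did so. The median was -0.24. Rpl3, a core protein of the large subunit (mm10 chromosome 15, 80077791 to 80091868, minus strand), had 4704, 4938 and 4694 CPM in the controls and 2493 to 3512 CPM (median 3156) with carmofur (-0.64 ± 0.08, adjusted p = 0.000942). Rps18, of the small subunit, had 5594, 5946 and 5379 CPM and 3464 to 4528 CPM with a median of 4242 (-0.45 ± 0.07, adjusted p = 0.00397). Rpl17 (-0.54 ± 0.08, adjusted p = 0.0018) and Rpl10a (-0.60 ± 0.10, adjusted p = 0.00311) were likewise separated from the controls. Rpl22l1, a paralogue of Rpl22, fell most, from 629, 568 and 535 CPM in the controls to 140.0 to 369 CPM (median 196) with carmofur (-1.38 ± 0.23, adjusted p = 0.00456). All 5 calls held in each fit that left out 1 library, whereas the count for the list was 7 without control replicate 1. With library sizes alone as the scaling, the list had 11 falls and a median of -0.18.

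Translation factors had 5 falls and 0 rises among 29 tested, with a median of -0.18. Eef2, which moves the ribosome along its message, had 1048, 1114 and 1086 CPM in the controls and 735 to 868 CPM (median 776) with carmofur, without overlap (-0.46 ± 0.08, adjusted p = 0.00812), and lost its call without control replicate 2 (adjusted p = 0.0535). Eef1a1, which delivers transfer RNAs (-0.28 ± 0.07), Eif4a2, a helicase of initiation (-0.65 ± 0.16), and Eif2s2, a subunit of the initiation factor eIF2 (-0.29 ± 0.07), each lost the call in 8 of 9 such fits (adjusted p up to 0.170, 0.122 and 0.158). The list had 1 fall with library-size scaling and 1 without control replicate 1, and its median ran from -0.22 to -0.09 with 1 library left out. Genes of ribosome assembly had 1 rise, Utp4 of the small-subunit processome (0.71 ± 0.18, adjusted p = 0.0492), among 34 tested (2.15% of all genes were called) and a median of 0.24. That call was lost in 8 of 9 fits without 1 library (adjusted p up to 0.196), and without control replicate 1 the list had 0 rises and 0 falls. Salmon splits reads between near-identical sequences, so values of ribosomal protein genes, Eef1a1 and Gapdh, which have many processed copies in the genome, are uncertain in that respect.

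Metallothioneins, small cysteine-rich proteins that bind zinc and copper, had 3 falls among 5 tested and a median of -0.79. Mt1 had 1561, 1338 and 1750.0 CPM in the controls and 788 to 1074 CPM (median 866) with carmofur (-0.79 ± 0.10, adjusted p = 0.000942). Mt2 had 397, 347 and 309 CPM and 98.8 to 209.7 CPM with a median of 128 (-1.27 ± 0.21, adjusted p = 0.00421), and Mt4 389, 444 and 409.8 CPM and 213 to 309 CPM with a median of 235 (-0.75 ± 0.13, adjusted p = 0.00685). All 3 genes lie within mm10 chromosome 8, 94137197 to 94180327, none overlapped between the groups, and each call held whichever library was left out. Mt3 did not pass (-0.96 ± 0.33, adjusted p = 0.175). Among 37 genes of glutathione and of NRF2, the oxidant-responsive transcription factor, 2 rose and 1 fell. Gsta1, a glutathione transferase (ENSMUSG00000074183; mm10 chromosome 9, 78230656 to 78242684, plus strand), had 5.62, 5.24 and 1.99 CPM in the controls and 28.2 to 56.5 CPM (median 42.9) with carmofur. Among genes averaging 20 CPM or more whose groups did not overlap it rose most (3.33 ± 0.50, adjusted p = 0.00191), though reads may be shared with its near copy Gsta2. Mgst3, a microsomal glutathione transferase, had 851, 849 and 921 CPM and 1219.7 to 1338 CPM with a median of 1259 (0.54 ± 0.08, adjusted p = 0.00162), while Txn1, thioredoxin, had 858, 733 and 779.7 CPM and 511 to 583 CPM with a median of 545 (-0.53 ± 0.09, adjusted p = 0.00676). These 3 calls held in every fit that left out 1 library.

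Both cell cycle lists held rises and 0 falls. In the list of mitosis and its preparation, 9 of 40 tested genes rose and 0 fell, 38 had a positive log2 fold change, and the median was 0.64. Ccnb1, the cyclin that drives entry into mitosis (mm10 chromosome 13, 100778650 to 100786570, minus strand), had 710.1, 635 and 665 CPM in the controls and 1118 to 1281 CPM (median 1201) with carmofur. The gap between the groups was wider than either group's range, and the log2 fold change was 0.84 ± 0.09 (adjusted p = 0.000139). Bub3, of the spindle checkpoint, had 468, 457 and 513 CPM and 714 to 839.5 CPM with a median of 759.8 (0.67 ± 0.10, adjusted p = 0.00162). Prc1, a bundler of spindle microtubules (0.79 ± 0.13, adjusted p = 0.00378), and Kif20a, a kinesin of cell division (1.02 ± 0.18, adjusted p = 0.00575), also rose without overlap. These 4 calls held whichever library was left out, and without control replicate 1 the list had 7 rises.

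In the list of S phase and DNA replication, 5 of 37 tested genes rose and 0 fell, 31 had a positive log2 fold change and the median was 0.63. Ccne2, a cyclin of the start of replication, had 219.7, 128 and 249 CPM in the controls and 310.5 to 435 CPM (median 385) with carmofur, without overlap (0.93 ± 0.18, adjusted p = 0.0122), and kept its call in every fit with 1 library left out. Rfc4, of the clamp loader, had 366, 276 and 326 CPM and 410.4 to 568 CPM with a median of 510.1 (0.63 ± 0.14, adjusted p = 0.0258) and lost its call in 4 of 9 such fits (adjusted p up to 0.105). The helicase subunits Mcm3 (1.04 ± 0.25) and Mcm4 (0.87 ± 0.22) lost theirs in 6 and 8 (adjusted p up to 0.0953 and 0.125). There were 3 rises without control replicate 1. Of 30 genes of DNA damage and repair, 0 passed in either direction, with a median of 0.25.

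Genes of pyrimidine metabolism and of fluoropyrimidine handling, the list closest to the drug's prodrug action, had 6 rises and 0 falls among 31 tested, with a median of 0.22. Ggh, which trims the glutamate tail of folates (ENSMUSG00000073987; mm10 chromosome 4, 20042052 to 20066750, plus strand), had 90.5, 80.7 and 125 CPM in the controls and 199 to 284 CPM (median 262) with carmofur. The groups did not overlap and the call held whichever library was left out (1.36 ± 0.18, adjusted p = 0.000942). Ribonucleotide reductase makes deoxynucleotides, and both its subunits rose. Rrm2 had 275, 303 and 506 CPM in the controls and 527 to 1098 CPM (median 749) with carmofur (1.06 ± 0.23, adjusted p = 0.0222), with the highest control close to the lowest treated library. The call was lost without control replicate 1 (adjusted p = 0.118) or control replicate 2 (adjusted p = 0.102). Rrm1 had 318, 273 and 281 CPM and 337 to 569 CPM with a median of 464 (0.64 ± 0.15, adjusted p = 0.0304). Its call was lost in 6 of 9 such fits (adjusted p up to 0.105). Nme1, a nucleoside diphosphate kinase (0.38 ± 0.09, adjusted p = 0.0431), and, named after their values were seen, Dut, which removes dUTP (2.03 ± 0.51, adjusted p = 0.0455), and Samhd1, which degrades deoxynucleotides (0.74 ± 0.19, adjusted p = 0.0498), each lost the call in 8 of 9. Tyms, the target enzyme of the fluorinated pyrimidine, had 517, 410.1 and 438 CPM in the controls and 498 to 618 CPM (median 534) with carmofur, with overlap (0.27 ± 0.11, adjusted p = 0.273). Umps, which activates 5-fluorouracil, did not pass either (0.997, adjusted p = 0.0924). The list had 2 rises when control replicate 1 was left out.

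Sphingolipid genes, the list closest to the ceramidase action, gave 1 rise and 0 falls among 40 tested and a median of 0.06. That 1 of 40 lies near the 2.15% of all genes that were called. The ceramidase genes did not pass. Asah1, acid ceramidase, had 479, 426 and 508 CPM in the controls and 333 to 516 CPM (median 429) with carmofur, so that all 3 controls lay inside the treated range (-0.14 ± 0.13, adjusted p = 0.756). The alkaline ceramidases Acer1 (-0.64 ± 1.58, adjusted p = 0.954), Acer2 (-0.02 ± 0.47, adjusted p = 0.997) and Acer3 (0.29 ± 0.30, adjusted p = 0.796) and the neutral ceramidase Asah2 (0.04 ± 1.97, adjusted p = 0.998) had standard errors larger than their differences. The single call was Cers5, a ceramide synthase, with 4.99, 0.629 and 1.33 CPM in the controls and 11.8 to 34.1 CPM (median 23.4) with carmofur (3.52 ± 0.79, adjusted p = 0.0281). The controls held 17 of its counts in all, close to the limit of 3 counts per library, so the size of its change is uncertain, and the call was lost in 6 of 9 fits without 1 library (adjusted p up to 0.0959).

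Targets of p53, the DNA damage response factor that AKP tumours are understood to lack, gave 0 calls among 25 tested and a median of -0.11. Cdkn1a, the cell cycle inhibitor, had 36.2, 58 and 47.2 CPM in the controls and 31.5 to 47.2 CPM (median 38.7) with carmofur (-0.28 ± 0.29, adjusted p = 0.803), and Mdm2, the ubiquitin ligase of p53, 15.6, 22 and 22.1 CPM and 0.683 to 24.3 CPM with a median of 20.3 (-0.40 ± 0.80, adjusted p = 0.935). In both genes the groups overlapped. Trp53, which encodes p53, was at 1.25, 8.8 and 5.09 CPM in the controls and 0 to 7.62 CPM (median 5.02) with carmofur, near the limit of 3 counts in part of the libraries. The BCL2 family and apoptosis list had 0 calls among 26, and 1 rise without control replicate 1 or with library-size scaling. The pro-apoptotic genes Pmaip1 (-0.70 ± 0.21, adjusted p = 0.104) and Bax (-0.87 ± 0.35, adjusted p = 0.261) did not pass.

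Of 31 tested markers of the revival state 7 rose and 0 fell, 27 had a positive log2 fold change and the median was 0.46. Clu, the secreted chaperone clusterin that names the revival stem cell (ENSMUSG00000022037; mm10 chromosome 14, 65968483 to 65981547, plus strand), had 4.99, 24.1 and 21.7 CPM in the controls and 38.3 to 196 CPM (median 94.2) with carmofur. The groups did not overlap, and the treated libraries spread over a wide range. Its log2 fold change was 2.59 ± 0.52 (adjusted p = 0.0139). Il1rn, the interleukin-1 receptor antagonist, had 162, 215 and 226 CPM and 299 to 565 CPM with a median of 469.8 (1.18 ± 0.18, adjusted p = 0.00208). Anxa8, an annexin of regenerating epithelium, had 21.8, 39.6 and 49 CPM and 78.9 to 117 CPM with a median of 97.6 (1.38 ± 0.27, adjusted p = 0.0125). Both were separated from the controls, as were Anxa2 (0.41 ± 0.07, adjusted p = 0.00741) and the calcium-binding S100a11 (0.53 ± 0.10, adjusted p = 0.00813). These 5 calls held whichever library was left out. Emp1, a membrane protein that also stands in the absorptive list (0.87 ± 0.20, adjusted p = 0.0336), and Spp1, osteopontin (1.16 ± 0.28, adjusted p = 0.0379), lost theirs in 6 and 7 of 9 such fits (adjusted p up to 0.136 and 0.149). Anxa1 (0.06 ± 0.07, adjusted p = 0.844) and Cd44 (0.76 ± 0.22, adjusted p = 0.0943) did not pass. Without control replicate 1 the list had 6 rises and a median of 0.49.

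Absorptive colonocyte markers had 4 rises and 1 fall among 18 tested and a median of 0.67. Car1, a carbonic anhydrase of surface colonocytes, had 428, 341 and 491 CPM in the controls and 623 to 991 CPM (median 790.4) with carmofur (0.93 ± 0.14, adjusted p = 0.00191). Car2, its abundant relative, had 3124, 3222 and 3557 CPM and 4514 to 5378 CPM with a median of 4634 (0.53 ± 0.07, adjusted p = 0.000942). Neither gene overlapped between groups, and both calls held whichever library was left out. Krt20, the keratin of differentiated surface cells, had 2.5, 6.29 and 5.76 CPM and 13.9 to 43.5 CPM with a median of 29.2 (2.54 ± 0.58, adjusted p = 0.0301), a call lost in 7 of 9 such fits (adjusted p up to 0.0764). The fall, that of the selenium-binding protein gene Selenbp1, named after its values were seen, was of -1.14 ± 0.28 (adjusted p = 0.0409) and was lost in 7 (adjusted p up to 0.150). Without control replicate 1 the list had 2 rises and 0 falls. Agr2, a goblet cell disulphide isomerase, had 229, 229.9 and 275 CPM in the controls and 83.9 to 157 CPM (median 122) with carmofur (-1.02 ± 0.19, adjusted p = 0.00882) and was the 1 call, a fall, among 7 goblet genes tested. It was lost without control replicate 3 (adjusted p = 0.0586). Only those 7 of 23 listed goblet genes were tested, 4 with a positive log2 fold change and 3 with a negative one. Their median was 0.34, and it ran from -0.60 to 0.50 with 1 library left out. Of 20 enteroendocrine, tuft and Paneth markers, 3 were tested and 0 passed.

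Crypt-base stem cell genes gave 0 calls among 21 tested, with a median of -0.52 that became -0.02 without control replicate 1, and 1 rise with library-size scaling. Lgr5, the receptor that marks these cells, had 28.1, 19.3 and 1.55 CPM in the controls and 1.23 to 27.4 CPM (median 6.2) with carmofur (-0.83 ± 0.97, adjusted p = 0.833). Ascl2, a transcription factor of the same cells, had 74.9, 13.6 and 15.5 CPM and 6.61 to 20.1 CPM with a median of 17.4 (-1.12 ± 0.56, adjusted p = 0.409), so that control replicate 1 alone stood high. The groups overlapped in both genes. Prom1, also a marker of the crypt base, did not pass in the other direction (0.91 ± 0.25, adjusted p = 0.0723).

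**Figure D2:**
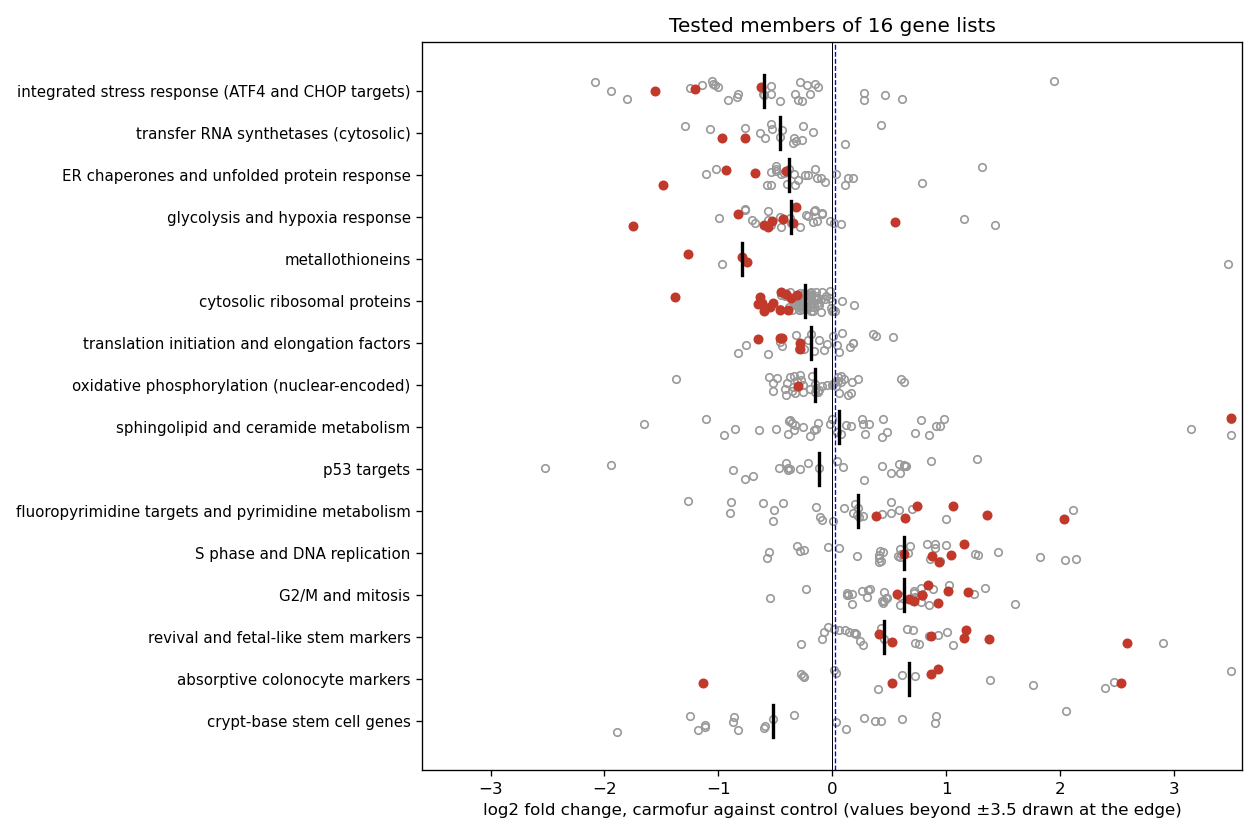
Log2 fold change of every tested member of 16 gene lists (horizontal axis, carmofur against control, values beyond the axis drawn at its edge): filled red points passed an adjusted p of 0.05, open grey points did not, black bars are list medians and the dashed line is the median of all genes tested. Medians run from -0.79 in the metallothioneins to 0.67 in the absorptive colonocyte markers.

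Squamous and keratin genes had 2 rises and 1 fall among 22 tested, and 1 rise and 0 falls without control replicate 1. Sprr2a2, a cornified envelope protein with near-identical neighbours, had 939, 728 and 617 CPM in the controls and 1092 to 1425 CPM (median 1273) with carmofur, without overlap (0.74 ± 0.12, adjusted p = 0.00359), kept in every fit with 1 library left out. Pkp1, a desmosome protein, fell (-1.23 ± 0.28, adjusted p = 0.0288), a call lost in 6 of 9 (adjusted p up to 0.150). Among 25 genes of epithelial-mesenchymal transition and matrix, 2 rose and 0 fell, and without control replicate 1 there were 0 calls. Timp1, the metalloproteinase inhibitor, had 0 counts in all 3 controls and 285 in the treated libraries. The treated counts ran from 6 in carmofur replicate 4 to 71 in replicate 3. Pooled over the treated libraries, it was at least 30.3-fold higher than a limit of 3 counts across the control group. That bound is for the pooled level and not for each library. The call of Timp1 was lost in 8 of 9 such fits (adjusted p up to 0.0995). Lama3, a laminin chain, had 3.12, 18 and 6.42 CPM and 28.7 to 54 CPM with a median of 38.3 (2.08 ± 0.51, adjusted p = 0.0427), a call lost in 8 (adjusted p up to 0.144).

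The energy and turnover lists held 5 falls. The mitochondrially encoded oxidase subunit mt-Co2 had 3925, 3806 and 3845 CPM in the controls and 2528 to 2990.4 CPM (median 2889) with carmofur, without overlap (-0.45 ± 0.07, adjusted p = 0.00162), and was the 1 call among 13 such messages. Uqcrq of respiratory complex III (-0.30 ± 0.08, adjusted p = 0.044) was the 1 call among 44 nuclear genes of oxidative phosphorylation and was lost in each of the 9 fits without 1 library (adjusted p up to 0.177). The lysosomal Lamp2 (-0.54 ± 0.12, adjusted p = 0.0283) and Npc2 (-0.66 ± 0.16, adjusted p = 0.0362), 2 of 35 tested, lost the call in 5 and 6 fits. The lysosome list had 0 rises beside these 2 falls, but 2 rises and 1 fall without control replicate 1 and 1 rise and 2 falls with library-size scaling. The proteasome subunit Psma3 (-0.36 ± 0.09, adjusted p = 0.0357), 1 of 34, lost it in 8. Both 1 of 44 and 1 of 34 lie near the 2.15% of all genes that were called. By edgeR 0 genes passed among the tested members of the cholesterol synthesis (25), fatty acid synthesis (18), fatty acid oxidation (25), YAP target (22), interferon (21), NF-kB (21), MAPK feedback (26), immediate early (24), heat shock (25), epithelial identity (18), small nucleolar RNA host (13) and histone (6) lists. Medians of these lists ran from -0.33 in the histone list to 0.68 in the NF-kB list. The NF-kB median ranged from 0.43 to 0.80 with 1 library left out. The histone list held 44 genes, H1f0 among them, so most of it was not tested. Without control replicate 1 the interferon list had 1 rise and the small nucleolar RNA host list 1 fall.

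The other large changes were spread over unrelated functions. Vsig1, a junctional adhesion molecule of stomach epithelium, had 2.5, 12.4 and 0.443 CPM in the controls and 38.6 to 58.6 CPM (median 48.6) with carmofur (3.20 ± 0.66, adjusted p = 0.0182), and control replicate 3 held 2 counts. The call held whichever library was left out. S100a4, a calcium-binding protein, had 3.12, 17 and 5.76 CPM and 34.2 to 62.1 CPM with a median of 45.1 (2.40 ± 0.50, adjusted p = 0.0184) and lost its call without control replicate 3 or carmofur replicate 5 (adjusted p = 0.0756 and 0.0527). S100a7a, an epidermal antimicrobial relative (2.64 ± 0.59), Tubb2a, a beta tubulin (2.74 ± 0.65), and Fam111a, a protease linked to DNA replication (2.18 ± 0.48), rose and lost the call in 5, 7 and 4 of 9 such fits. Fbxo36, an F-box gene, had 79.9, 57.8 and 76.2 CPM in the controls and 2.74 to 33.4 CPM (median 11.9) with carmofur (-2.31 ± 0.53, adjusted p = 0.0301). With Bphl, a serine hydrolase (-1.49 ± 0.36), Spidr, a scaffold of homologous recombination (-1.76 ± 0.44), and Hnrnpa0, an RNA-binding protein (-1.36 ± 0.34), it completes the 8 largest falls, and these 4 calls were lost in 7 or 8 of 9 fits.

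The 2 runs of treated library numbers were compared with each other, a contrast of treated libraries in a fit whose spread and scaling also draw on the controls. Cma1, a chymase, was the 1 gene of 10907 that differed (0.00917%). It had 514, 538 and 481 CPM in replicates 1 to 3 and 266, 224 and 285 CPM in replicates 4 to 6, beside 713, 552 and 659.6 CPM in the controls. The second run was below the first without overlap (-0.98 ± 0.13, adjusted p = 0.0258), and the call was lost in 7 of 9 fits without 1 library (adjusted p up to 0.273). At an unadjusted p under 0.05 there were 427 genes. For carmofur against control, replicates 1 to 3 alone gave 21 calls and replicates 4 to 6 alone gave 99. When counts were summed by run, 0 genes passed by edgeR, with 1849 at an unadjusted p under 0.05. That fit sets 1 control sum against 2 treated sums, too few to say anything of the stability of the calls.

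The 234 called genes were then followed in the 2 other library blocks of the carmofur experiment, each with its own controls: 3 controls and 6 treated libraries in the second, 6 and 3 in the third. All are AKP organoids with the same treatment labels. In the second block 512 of 10781 genes passed (4.75%), 3.26% higher and 1.49% lower, and in the third block 588 of 11034 (5.33%), 3.10% higher and 2.23% lower. In the third block 228 of the 234 had the same sign and 145 passed in the same direction (62.0% of the 234 and 24.7% of that block's calls), with 0 in the opposite one. In the second, 191 had the same sign, 92 passed in the same direction (39.3% and 18.0%) and 3 in the opposite one, Nme1, Eif2s2 and Lamp2. Those genes were selected by their call. Over all genes tested in both blocks, Pearson's r of the log2 fold changes across genes was 0.19 with the second block (10164 genes) and 0.183 with the third (10285 genes). Genes are not independent replicates. Of 115 rises, 62 passed in the second block and 74 in the third, and of 119 falls 30 and 71. Of the first block's 170 calls without control replicate 1, 77 passed in the second block and 119 in the third block.

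Called in the same direction in all 3 blocks were 53 rises and 20 falls. Among the falls, log2 effects for Asns stood at -1.24 (adjusted p = 0.00227) in the second block and at -1.56 (adjusted p = 1.11e-05) in the third. For the chaperone Hspa5 these were -1.59 (adjusted p = 1.94e-05) and -1.26 (adjusted p = 9.95e-05), for Ero1a -0.98 (adjusted p = 0.00164) and -2.44 (adjusted p = 8.08e-07). For Rpl3 they were -0.72 (adjusted p = 0.00342) and -0.94 (adjusted p = 3.39e-06), and for Mt2 -0.92 (adjusted p = 0.0426) and -1.28 (adjusted p = 9.95e-05). Among the rises, Ccnb1 had 0.95 (adjusted p = 0.000976) and 0.88 (adjusted p = 0.000109), and Il1rn 1.59 (adjusted p = 0.000233) and 1.11 (adjusted p = 0.000132). Car1 had 1.39 (adjusted p = 0.000404) and 1.57 (adjusted p = 8.07e-05), and Gsta1 2.67 (adjusted p = 0.00847) and 2.08 (adjusted p = 0.0267). Called in neither other block were 68 genes, among them Tubb2a, Fbxo36, Spidr, Bphl, Dut, Rrm1, Cers5 and Timp1. Vegfa passed in the third block, at -3.53 (adjusted p = 0.000526), and not in the second, at -0.90 (adjusted p = 0.136). For mt-Co2 these were -0.49 (adjusted p = 0.000336) and 0.16 (adjusted p = 0.501).

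List medians of log2 fold change also stood side by side. For the stress response they were -0.60 in the first block, -1.01 in the second and -0.78 in the third, and for the chaperones -0.38, -0.76 and -0.40. The mitosis list had medians of 0.64, 0.26 and 0.47, and the S phase list 0.63, -0.08 and 0.56. Ribosome assembly genes had 0.24, -0.43 and 0.16, and glycolysis and hypoxia genes -0.36, -0.16 and -0.76. For the revival markers they were 0.46, 0.70 and 0.49. Differences between these medians were not tested.

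**Figure D3:**
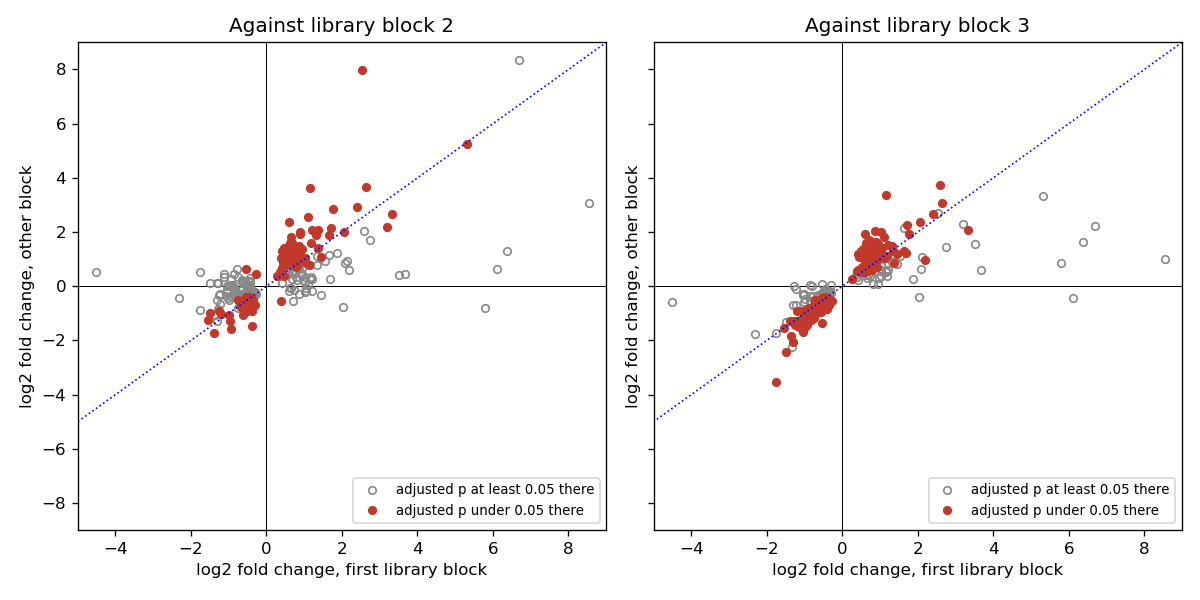
Log2 fold change of the 234 called genes in the first library block (horizontal axis) against the second block (left panel) and the third block (right panel) on the vertical axis, with the dotted line marking equal values. Filled red points passed an adjusted p of 0.05 in the other block, 95 in the second (3 of them in the opposite direction) and 145 in the third.

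The difference itself was tested over 27 libraries as the effect in the first block minus the mean effect in the other 2. Of 13123 genes, 14 passed (0.107%), 2 with a higher (0.0152%) and 12 with a lower effect (0.0914%) in the first block. Apoc2, an apolipoprotein that activates lipoprotein lipase, had 332, 274 and 255 CPM in the first block's controls and 397 to 480 CPM with carmofur. Its controls elsewhere ran from 86.8 to 289 CPM and its treated libraries from 461 to 773 CPM. The log2 effect was 0.59 in the first block against 2.36 and 1.94, a difference of -1.51 ± 0.21 (adjusted p = 0.000165). Ptma, prothymosin alpha, a nuclear protein of dividing cells, had 4463, 4258 and 4466 CPM in the first block's controls and 3033 to 3664 CPM with carmofur. Its log2 effect was -0.40 there against -1.47 and -0.84, a difference of 0.81 ± 0.11 (adjusted p = 0.000165). Both differences passed whichever first-block library was left out.

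Spp1, osteopontin (mm10 chromosome 5, 104435118 to 104441050, plus strand), had 232, 111 and 76.2 CPM in the first block's controls and 243 to 414 CPM with carmofur. In the other blocks the controls held 16.2 to 92.1 CPM and the treated libraries 420 to 1274 CPM. Its difference was -2.28 ± 0.46 (adjusted p = 0.0423), and -1.75 without control replicate 1 (adjusted p = 0.236), which held the highest control value. Txnip, an inhibitor of thioredoxin and of glucose uptake, had 118, 47.5 and 51.2 CPM in the first block's controls and 22.8 to 73.0 CPM with carmofur, against 107 to 385 CPM in treated libraries elsewhere. The effects were -0.77, 2.46 and 0.88, a difference of -2.39 ± 0.44 (adjusted p = 0.0119), and -1.89 without control replicate 1 (adjusted p = 0.191). Hcfc1r1, a regulator of the host cell factor (difference -1.77 ± 0.35, adjusted p = 0.0323), Upk3bl, a uroplakin relative (-3.48 ± 0.71, adjusted p = 0.0336), and Hnrnpab, an RNA-binding protein (0.99 ± 0.19, adjusted p = 0.0196), complete the genes named. The calls of Spp1 and Upk3bl were each lost in 6 of 9 fits without 1 first-block library. Hcfc1r1 lost its call without control replicate 1 or carmofur replicate 2 or 6, and Hnrnpab without control replicate 1 or carmofur replicate 6. Against the second block alone 115 genes passed, and against the third alone 0 by edgeR, with 1038 at an unadjusted p under 0.05. A fit without control replicate 1 gave 2 genes.

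**Figure D4:**
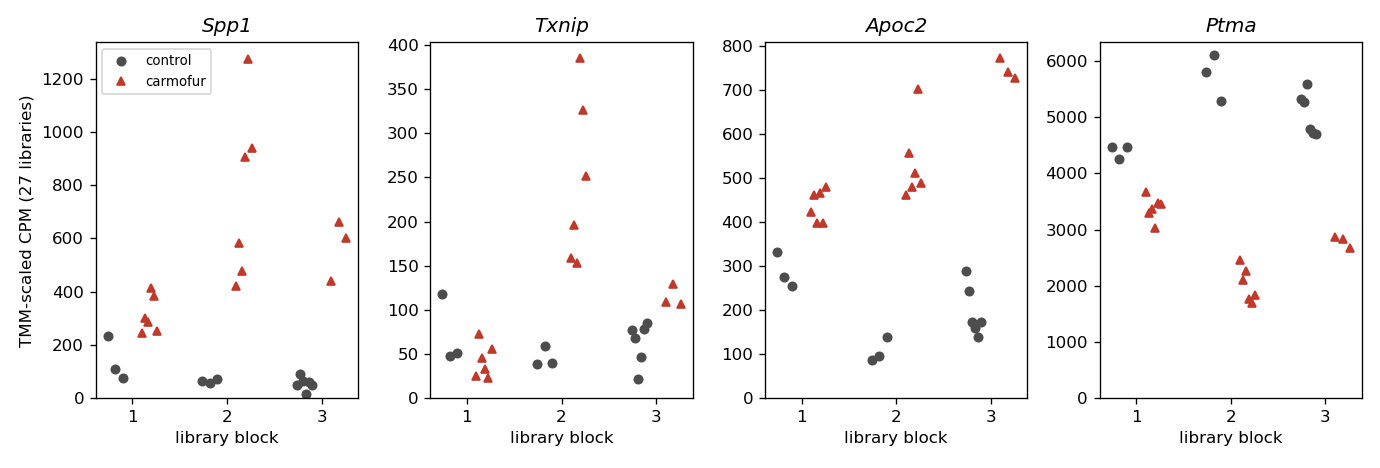
TMM-scaled CPM over 27 libraries (vertical axes, starting at 0) of Spp1, Txnip, Apoc2 and Ptma in control (grey circles) and carmofur libraries (red triangles) of each of the 3 library blocks (horizontal axis). Treated libraries of the first block reach 414 CPM for Spp1 and 73.0 CPM for Txnip, below every treated library of the other blocks, and for Ptma lie above all of them.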

How the data were processed

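Polyadenylated RNA of organoids was extracted with TRIzol and column purification and made into strand-specific libraries, per the labels' protocols. The deposited table holds estimated counts per gene, as whole numbers, made by the authors with Salmon 1.3.0, and mm10 is the build, per the submitters' processing notes. How transcripts were joined into genes, and with which annotation, is not given in the sources used here. Of 54354 genes, 1243 were unnamed (0.0235% of the counts of these libraries). They stayed in the table that was filtered and fitted, and were left out only when genes were picked for naming.

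The 9 libraries were fitted in edgeR 4.0.16 (R 4.3.3) as 2 groups with TMM scaling, the default expression filter, robust dispersion and the quasi-likelihood F test, at a Benjamini-Hochberg adjusted p of 0.05. The biological coefficient of variation was 0.754. Standard errors are log2 fold changes over the root of F, without sign. Values in CPM are TMM-scaled, and those of the comparison between blocks are scaled over its 27 libraries. The tests were also run on simulated counts, drawn with edgeR's own fitted dispersions and the depths of these libraries. Such counts cannot show how the tests behave where 1 library stands apart or library runs differ. No 2 libraries of a group agreed within sampling noise (lowest chi-square per degree of freedom 21.6).

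Named genes are the 8 largest rises and falls among calls that averaged 20 CPM or more without overlap between groups (no unnamed genes, predicted genes or pseudogenes), up to 4 genes of lowest p in each list described, genes fixed by name, and up to 5 per direction for the other contrasts. Not every gene these rules name is described. The members and lists were chosen with earlier results of these data known. Gene positions are from GENCODE M21 and promoter windows from RefSeq. Alternatives were RLE size factors, library-size scaling, DESeq2 1.42.0, limma 3.58.1 voom with quality weights, other filters, a minimum fold change, a replicate block, each library left out, library runs apart or summed, and all 27 libraries. Chosen after seeing the data were overlaps without control replicate 1 and fits without carmofur replicates 8 and 10 of the second block, which stand apart.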

Additional observations from a re-analysis of the deposited data

Results flagged for a closer look

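Of 109 values examined within the 6 treated libraries, 8 had the highest or lowest library far from the other 5, where chance gives about 1 in 20. The level stood apart at 104 CPM for Psph and 128 CPM for Cd44 in carmofur replicate 1, at 28.7 CPM for Hnrnpa0 in replicate 2 and at 970.0 CPM for Psma3 in replicate 5. In carmofur replicate 4 it stood apart at 1210.0 CPM for Rpl17, 518 CPM for Rpl10a and 1950.0 CPM for Uqcrq, the lowest value of each. The summed mesenchymal markers stood apart at 0.683 CPM in replicate 3, which is 3 counts.

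The effect of carmofur in the first block differed from the mean of the other 2 blocks in 7 named genes. By the test of the difference in edgeR, with Benjamini-Hochberg adjustment, the log2 differences were -3.48 for Upk3bl, -2.39 for Txnip, -2.28 for Spp1, -1.77 for Hcfc1r1, -1.51 for Apoc2, 0.99 for Hnrnpab and 0.81 for Ptma.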

How the results depend on the processing

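The 234 calls became 517 with DESeq2, 80 when a log2 fold change of at least 1 was required, 144 in a fit of all 27 libraries, 21 and 99 with treated replicates 1 to 3 or 4 to 6 alone, 0 with counts summed by run (1 control sum, too small a design to bear on stability), and 121 to 184 with 1 library left out. RLE size factors, library-size scaling, limma-voom, no filter and a filter at a mean count of 10 gave 217 to 236. With the replicate number as a block there were 55 calls (29 higher, 26 lower). The controls carry only numbers 1 to 3, so treated replicates 4 to 6 add nothing to that contrast. It rests on replicates 1 to 3 of each group. Deviations of same-numbered control and treated libraries correlated at -0.00868, -0.00422 and -0.000238, and no library correlated best with its own number. No pairing by number was seen, but all such correlations, from -0.0246 to 0.0269, are too small to decide whether 1 exists. Of 76 named calls, 33 passed whichever library was left out. Similar totals did not mean the same genes, as limma-voom kept 57 of the 76 and the fit of all 27 libraries 47. Among the 33, Gsta1, Clu, Rps18 and Anxa8 lost the call with limma-voom. Clu, Aldoa, Anxa2 and Mt4 lost it in the fit of all 27 libraries.

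Between the runs of treated libraries there were 7 calls with DESeq2, 2 with limma-voom, 9 with no filter, 0 with the fold minimum and 0 to 1 with 1 library left out. For the difference between blocks there were 23 with RLE, 86 with DESeq2, 8 with limma-voom, 10 with no filter, 21 with the mean count filter, 115 against the second block alone, 0 against the third alone, 18 without carmofur replicates 8 and 10 of the second block, and 2 to 24 with 1 library left out. Against the third block alone the calls of Upk3bl, Txnip, Spp1, Hcfc1r1, Apoc2, Hnrnpab and Ptma were all lost.

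Leaving out 1 library, list medians ranged from -0.0077 to 0.32 for DNA repair, -0.61 to -0.016 for the crypt base, 0.028 to 0.50 for YAP targets, -0.16 to -0.026 for mitochondrial messages and 0.17 to 0.59 for matrix genes. The difference in summed endothelial and blood markers was -4.57 to 2.81 CPM. In the same fits Acer2 ranged from -0.24 to 0.28, Trp53 from -0.70 to 0.40 and Ascl2 from -1.49 to 0.11. Acer2 also changed sign with library-size scaling (0.049) and with replicates 4 to 6 alone (0.35). The causes were not tested. Genes near the limit of 3 counts, such as Cers5, Trp53 and Timp1, are those that depth limits most.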
